A study of Mus musculus with 12 samples.

Results

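The unfolded protein response genes described here are 10 genes, Hspa5, Hsp90b1, Ddit3, Atf4, Atf6, Xbp1, Ern1, Dnajb9, Calr and Pdia4, of the 55487 genes in the count table. They were taken by gene symbol from a list drawn up with earlier results of these data known, and the symbols stand on 11 rows. The second row named Ddit3 (ENSMUSG00000116429) had 0 counts in the 12 lungs, so ENSMUSG00000025408 was used for this gene. All 10 genes passed the filter on low counts. RNA-Seq was made from whole lungs of miR-30a-/- mice of the C57BL/6J strain, collected on PND 21. Hyperoxia-exposed pups had breathed 95% FiO2 from PND 1 to PND 5 and then recovered in room air, and control pups stayed in room air. There were 3 lungs in each of 4 groups: female room air (animal numbers 2, 5 and 6), female hyperoxia (2, 4 and 5), male room air (1, 4 and 5) and male hyperoxia (1, 2 and 3). Every lung, controls included, carried a CRISPR/Cas9 deletion of miR-30a in all tissues, so the comparisons are between exposures and sexes within this genotype. Pups of several litters were mixed before exposure, and the labels do not say which pups shared a litter. The question addressed is whether these genes differed in the lung at PND 21 between early hyperoxia and room air, and whether this depended on sex.

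The unfolded protein response is the reaction of a cell to unfolded proteins in the endoplasmic reticulum (ER), the compartment where secreted and membrane proteins fold. Membrane sensors detect the load: Ern1 encodes IRE1 alpha, whose nuclease splices Xbp1 mRNA into the form that makes an active transcription factor, Atf6 encodes a transcription factor released from the membrane by proteolysis, and the kinase PERK leads to translation of Atf4. The targets include ER chaperones, folding enzymes and degradation factors. In the lung the pathway is known from cells with a heavy secretory load, such as surfactant-producing alveolar type 2 cells, secretory airway cells, fibroblasts and plasma cells. Splicing of Xbp1, cleavage of Atf6 and translation of Atf4 do not show in counts per gene, which measure total mRNA alone.

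The windows from 250 bases before to 50 bases after the transcription start (RefSeq, GRCm38.p6) were searched, in either orientation, for the ER stress response element, whose letters are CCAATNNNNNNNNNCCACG. Windows were at hand for 9 of the 10 genes, Atf6 being the other. Matches stood in 3 of them, Hspa5, Hsp90b1 and Calr, against 39 of 32851 windows of all genes (0.119%). They are shown because Hsp90b1 and Calr were also the genes of the 10 whose levels ran closest to Hspa5 below. Each is written 5′ to 3′ on the strand that carries it, with the 2 fixed blocks in capitals.
Hspa5, chr2:34772025-34772043, gene strand +, match on + from 65 bases before the start: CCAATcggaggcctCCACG
Hsp90b1, chr10:86705638-86705656, gene strand −, same orientation as the gene, from 212 bases before the start: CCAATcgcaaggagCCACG
Hsp90b1, chr10:86705533-86705551, gene strand −, opposite orientation, from 107 bases before the start: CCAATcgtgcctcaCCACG
Calr, chr8:84847075-84847093, gene strand −, opposite orientation, from 162 bases before the start: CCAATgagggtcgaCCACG

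The CCACG block alone, which lies inside the element, stood in 7 of the 9 windows and in 32.8% of all windows. The second ER stress response element (ATTGGNCCACG, in 0.0365% of all windows), the unfolded protein response element (TGACGTGG, 0.676%) and an amino acid response element (TGATGNAAN, 3.95%) had no match in the 9 windows. A match describes letters and is not evidence of binding. The elements are named after the responses for which these genes were listed. The matches are therefore not an independent result, and no enrichment was tested.

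The deleted microRNA is shown with its seed (bases 2 to 8) in capitals, as RefSeq gives it at chr1:23272274-23272295 on the + strand.
mmu-miR-30a-5p: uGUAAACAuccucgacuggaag
The complement of this seed stood in the 3′ UTR of 1 of the 10 genes, Hspa5, and in 13.0% of 20921 genes with a 3′ UTR in the GENCODE M21 transcripts. Hspa5 had 2 such sites, from base 144 and from base 530 of its 1434-base 3′ UTR (chr2:34776257-34776263 and chr2:34776643-34776649, GRCm38), shown with 10 bases on either side and the site in capitals.
Hspa5 site at base 144: cccaagtggcTGTTTACtgcttttcat
Hspa5 site at base 530: agatgtttgcTGTTTACtcccctaggc
No lung of this comparison carried miR-30a, so the values below give no contrast of lungs with and without it. The RefSeq table holds the same seed in miR-30c-5p, miR-30e-5p and miR-384-5p, which the labels do not give as deleted and whose mature forms were not measured here. Whether it lists every microRNA with this seed was not checked.

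Depth ran from 8763033 counts (male hyperoxia 2) to 16741694 counts (female room air 5). Mir30a had 0 counts in each lung, but no lung with miR-30a was counted here, so this does not test the deletion. Xist and Ddx3y fitted the labelled sex in all 12. Counts on 1488 olfactory and vomeronasal receptor genes were taken as a measure of background reads and made up 0.41% to 0.945% of each library. The paper names olfactory receptor genes among the neuroendocrine genes raised in hyperoxia-exposed miR-30a-/- female lungs. The receptor counts may therefore hold some lung expression. The first principal component of the 21397 genes with a mean of at least 5 CPM held 52.2% of the variance. It ran from female room air 5 at one end to male hyperoxia 2 at the other, with lungs of all 4 groups between them. Levels below are CPM, counts divided by the upper-quartile normalized library size, and errors are SD over 3 lungs. The 10 genes were counted 76 to 4894 times per lung, against a floor of 3 counts.

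Per kilobase of exon, averaged over the 12 lungs, the ER chaperone genes were the most abundant of the 10, with Calr at 64.5 and Hsp90b1 at 48.6 CPM per kilobase. Xbp1 (30.8), Pdia4 (29.1), Hspa5 (27.7) and Atf4 (23.9 CPM per kilobase) followed, and these neighbouring levels lay close together. Dnajb9 (11.3), Atf6 (8.82) and Ern1 (8.21) were lower, and Ddit3, which encodes the stress-induced factor CHOP, was lowest at 5.33 CPM per kilobase. The estimated share of background reads in a gene's counts assumed the same rate per kilobase for every gene, so by construction it ran the other way. It went from 1.76% for Calr to 13.1% for Atf6, 14.1% for Ern1 and 21.7% for Ddit3.

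In females, each of the 10 genes had a lower mean level after hyperoxia than in room air, and none passed the test. At an unadjusted p under 0.05 there were 7 of the 10, all lower, while such genes made up 5.28% of the 45828 genes tested and 10.6% of the 21397 genes with a mean of at least 5 CPM, a level that all 10 reached. With edgeR's quasi-likelihood test and adjustment over all genes, the adjusted p of the 10 ran from 0.348 to 0.591, and 0 were called, a call needing a fold change above 1.5 besides an adjusted p below 0.05. DESeq2 also called 0 of them, with 7 at an unadjusted p under 0.05. The background for such calls was low, as 1 gene in all was called in females (0.00218%). The median log2 fold change of the 10 was −0.57, beside 0.11 for all genes tested and −0.07 for genes of at least 5 CPM. Relative to the median of all genes, the Hspa5 change was −0.81 and the Ern1 change −0.32. Across the 4 groups, the highest mean of each of the 10 genes was in female room air. For Hspa5 it was 158 CPM, beside 98.1 CPM in female hyperoxia, 111 in male room air and 102 in male hyperoxia. For Ern1 it was 71.12 CPM, beside 71.06 CPM in male hyperoxia. In 5 of the 10, Hspa5, Hsp90b1, Calr, Pdia4 and Atf4, the 3 female hyperoxia-exposed lungs lay below the 3 female room air lungs, an order found in 6.42% of all genes.

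Single lungs moved these counts. The number of the 10 with a lower level at an unadjusted p under 0.05 was 2 without female room air 5, 4 without female room air 2, 3 without female hyperoxia 4, 3 without female hyperoxia 5 and 8 without female room air 6. Of all 45828 genes, 2253, 3360, 3355, 2880 and 11584, respectively, reached this threshold in either direction, so the whole table moved too. None was called in any of these fits. The median log2 fold change of the 10 ran from −0.72 without female room air 6 to −0.38 without female room air 5. Without female room air 5, the log2 fold change was −0.019 for Ddit3, −0.32 for Xbp1, −0.086 for Ern1 and −0.35 for Dnajb9, while without female room air 6 it was −0.47 for Ddit3 and −0.31 for Ern1, and without female hyperoxia 5 it was −0.15 for Ddit3.

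**Figure D1:**
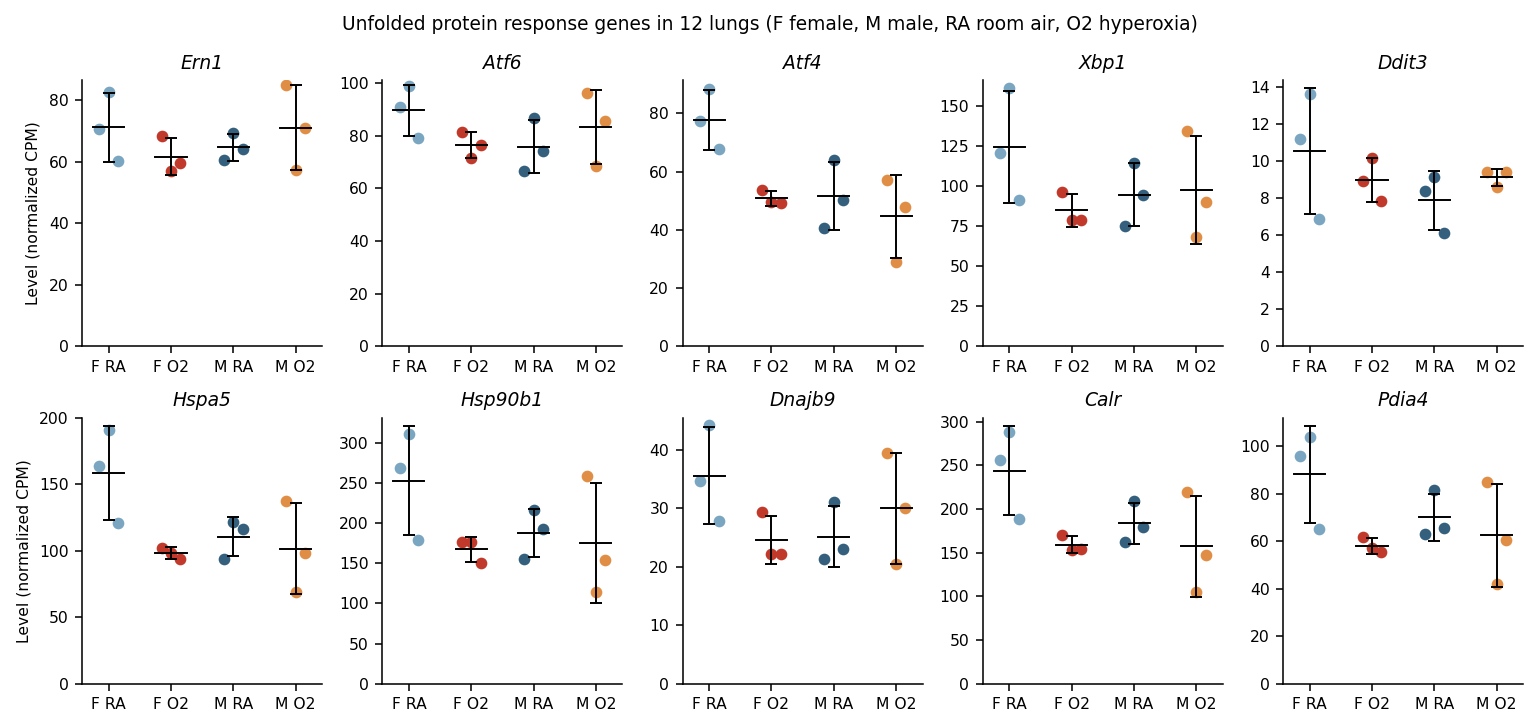
Normalized CPM (vertical axis, from 0) of each of the 10 genes, one point per lung in the 4 groups, with the mean and SD of 3 lungs as bars. In the Hspa5, Hsp90b1, Calr, Pdia4 and Atf4 panels the 3 female hyperoxia-exposed lungs lie under the female room air lungs, and 1 male hyperoxia-exposed lung is high and 1 low in most panels.

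Of the sensors, Ern1 differed little. Its levels were 70.6, 82.5 and 60.3 CPM in the female room air lungs 2, 5 and 6, and 68.4, 57.1 and 59.5 CPM in the female hyperoxia-exposed lungs 2, 4 and 5. The groups overlapped, with a log2 fold change of −0.21 ± 0.19 (SE, edgeR adjusted p = 0.591). Atf6 ranged from 79.3 to 98.8 CPM in female room air and from 71.4 to 81.3 CPM in female hyperoxia. These groups also overlapped, with a log2 fold change of −0.23 ± 0.19 (SE, edgeR adjusted p = 0.56). Both genes varied little over the 12 lungs, as the highest lung was 1.49 times the lowest for Ern1 and 1.48 times for Atf6.

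Among the transcription factor genes, Atf4, the effector of the PERK branch that switches on amino acid and stress genes, had the clearest separation in females. Its levels were 77.3, 88.4 and 67.9 CPM in female room air and 53.7, 49.5 and 49.2 CPM in female hyperoxia. The lowest room air lung lay well above the highest hyperoxia-exposed lung, and the means were 77.9 ± 10.3 and 50.8 ± 2.5 CPM (SD, n = 3). The log2 fold change was −0.62 ± 0.21 (SE), with an edgeR adjusted p of 0.348.

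Xbp1, the factor that drives chaperone and degradation genes, stood at 120 CPM in female room air lung 2, 161 in lung 5 and 91.1 in lung 6. Its levels in female hyperoxia were 96.4, 78.8 and 78.8 CPM. Lung 6 in room air fell within the range of the hyperoxia-exposed lungs, so the groups overlapped, with a log2 fold change of −0.55 ± 0.24 (SE, edgeR adjusted p = 0.378). Ddit3 was sparse, at 11.2, 13.6 and 6.87 CPM in female room air and 8.92, 10.2 and 7.82 CPM in female hyperoxia. Room air lung 6 had less Ddit3 than every hyperoxia-exposed female lung, and the log2 fold change was −0.25 ± 0.21 (SE, edgeR adjusted p = 0.566).

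Hspa5 (ENSMUSG00000026864, chr2:34771970-34777547, + strand, GRCm38) encodes BiP, the ER chaperone that binds the sensors, and had the most negative estimate of the 10 in females. Its levels were 164, 191 and 121 CPM in the female room air lungs 2, 5 and 6, and 102, 98.6 and 93.4 CPM in the female hyperoxia-exposed lungs 2, 4 and 5. The hyperoxia-exposed lungs lay close together and below the room air lungs, which spread widely, so the means were 158 ± 35.4 and 98.1 ± 4.4 CPM (SD, n = 3). The fold was 0.619 and the log2 fold change −0.69 (95% interval −1.18 to −0.21), with an edgeR adjusted p of 0.351.

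Hsp90b1, which encodes the ER chaperone GRP94, gave 269, 311 and 179 CPM in female room air and 176, 177 and 150 CPM in female hyperoxia. Room air lung 6 was only just above the highest hyperoxia-exposed lung. The log2 fold change was −0.60 ± 0.27 (SE, edgeR adjusted p = 0.385).

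Calr encodes the calcium-binding lectin chaperone calreticulin. It was counted at 256, 288 and 188 CPM in female room air and 170, 153 and 154 CPM in female hyperoxia. The groups did not overlap, and the log2 fold change was −0.62 ± 0.26 (SE, edgeR adjusted p = 0.364). Pdia4, a protein disulfide isomerase, had 95.7, 104 and 65.2 CPM in female room air and 61.8, 57.0 and 55.3 CPM in female hyperoxia. Here too the groups did not overlap, by a narrow margin at room air lung 6, and the log2 fold change was −0.61 ± 0.22 (SE, edgeR adjusted p = 0.354).

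Dnajb9, a co-chaperone of BiP known as a sensitive target of the IRE1 and XBP1 branch, had 34.7, 44.3 and 27.8 CPM in female room air. In female hyperoxia it had 29.4, 22.2 and 22.2 CPM, so that hyperoxia lung 2 lay above room air lung 6. The log2 fold change was −0.53 ± 0.20 (SE, edgeR adjusted p = 0.354).

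In males, no direction was shared, as 5 of the 10 genes had a lower and 5 a higher estimate after hyperoxia. None had an unadjusted p under 0.05 in edgeR or in DESeq2, beside 2.7% of all genes in edgeR, and none was called, as was no gene of the table (0%). The smallest unadjusted p was 0.198, for Dnajb9, and the groups overlapped for all 10. The median log2 fold change of the 10 was −0.03, beside −0.01 for all genes.

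The male hyperoxia-exposed lungs were spread widely. Hspa5 stood at 93.8, 122 and 117 CPM in male room air lungs 1, 4 and 5 and at 138, 68.8 and 98.4 CPM in male hyperoxia lungs 1, 2 and 3. Lung 1 was above and lung 2 below every male room air lung, and the log2 fold change was −0.12 (95% interval −0.61 to 0.36). Atf4 showed 40.5, 63.9 and 50.4 CPM in male room air and 57.1, 29.1 and 47.9 CPM in male hyperoxia. Dnajb9 had the highest estimate, with 21.3, 31.0 and 22.97 CPM in male room air, 39.4, 20.5 and 30.1 CPM in male hyperoxia and a log2 fold change of 0.27 (95% interval −0.15 to 0.68). In 7 of the 10 genes the lowest of the 12 lungs was male hyperoxia 2, and in 9 the highest was female room air 5. The median of the 10 in males was −0.33 without male hyperoxia 1, −0.16 without male room air 1, 0.04 without male hyperoxia 3, 0.10 without male room air 4 and 0.19 without male hyperoxia 2, so its direction depended on single lungs.

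Pooled over sex, the 10 estimates were all below 0, with a median log2 fold change of −0.30 beside 0.03 for all genes, and none was called (edgeR adjusted p from 0.927 to 0.995). At an unadjusted p under 0.05 there were 4, Hspa5, Atf4, Calr and Pdia4, all lower, beside 2.52% of all genes. DESeq2 gave 0 calls and 4 at an unadjusted p under 0.05. The background share called was 0.0415%. The pooled log2 fold changes of these 4 genes ran from −0.42 for Calr to −0.38 for Pdia4. Ddit3 (−0.01), Ern1 (−0.03) and Atf6 (−0.05) were near 0. The count of 4 became 1 without female room air 5, 2 without female room air 2, 2 without male room air 4, 6 without female room air 6 and 6 without male hyperoxia 1. In these fits 1588, 1767, 1606, 4899 and 5269 of all 45828 genes, respectively, reached this threshold in either direction. The pooled median was −0.20 without female room air 5, −0.19 without male hyperoxia 2 and −0.46 without male hyperoxia 1.

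The effects of hyperoxia were compared between the sexes by an interaction term. Each of the 10 genes had a more negative estimate in females than in males, with a median difference of −0.45 in log2 fold change beside 0.12 for all genes. This median was −0.21 with background reads subtracted and −0.23 without male hyperoxia 1. None was called by edgeR (adjusted p from 0.578 to 0.654), as was no gene of the table (0%), and DESeq2 called none. In edgeR only Dnajb9 had an unadjusted p under 0.05, beside 2.4% of all genes that were lower at this threshold, and DESeq2 also had 1. The Dnajb9 difference was −0.80 (95% interval −1.38 to −0.22, edgeR adjusted p = 0.578). The number of the 10 at this threshold was 6 without male hyperoxia 2, 5 without female room air 6 and 2 without male room air 4. Of all 45828 genes, 10114, 8486 and 5308, respectively, reached it in either direction. In this fit no difference of the hyperoxia effect between sexes was detected for these genes, and the intervals of single genes were wide; with RUVr, described below, Dnajb9 was called.

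Averaged over exposures, 9 of the 10 genes had a higher level in females than in males and Ern1 a lower one, although with DESeq2 all 10 were higher. This direction did not hold in every fit, as 6 of the 10 were lower in females with the receptor share as covariate (median −0.02) and 3 without male hyperoxia 2. The median of 0.15 was 0.03 without male hyperoxia 2, 0.07 without female room air 5, 0.24 without female room air 6 and 0.25 without male hyperoxia 1. None was called, beside 1.22% of all genes, and the 1 at an unadjusted p under 0.05 was Atf4, with a log2 difference (female minus male) of 0.39 ± 0.15 (SE, edgeR adjusted p = 0.41). The background share higher at this threshold was 4.05%. With the receptor share as covariate the Atf4 difference was 0.26 (edgeR adjusted p = 0.0221), under the fold needed for a call. DESeq2 also called none and had 1 at this threshold. Without male room air 1 the edgeR count was 0, without female room air 6 it was 2 and without male hyperoxia 1 it was 4. In these fits 2507, 5003 and 5288 of all 45828 genes, respectively, reached this threshold in either direction. With RUVr, described below, 4 of the 10 were higher in females at an adjusted p under 0.05, and none was called.

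**Figure D2:**
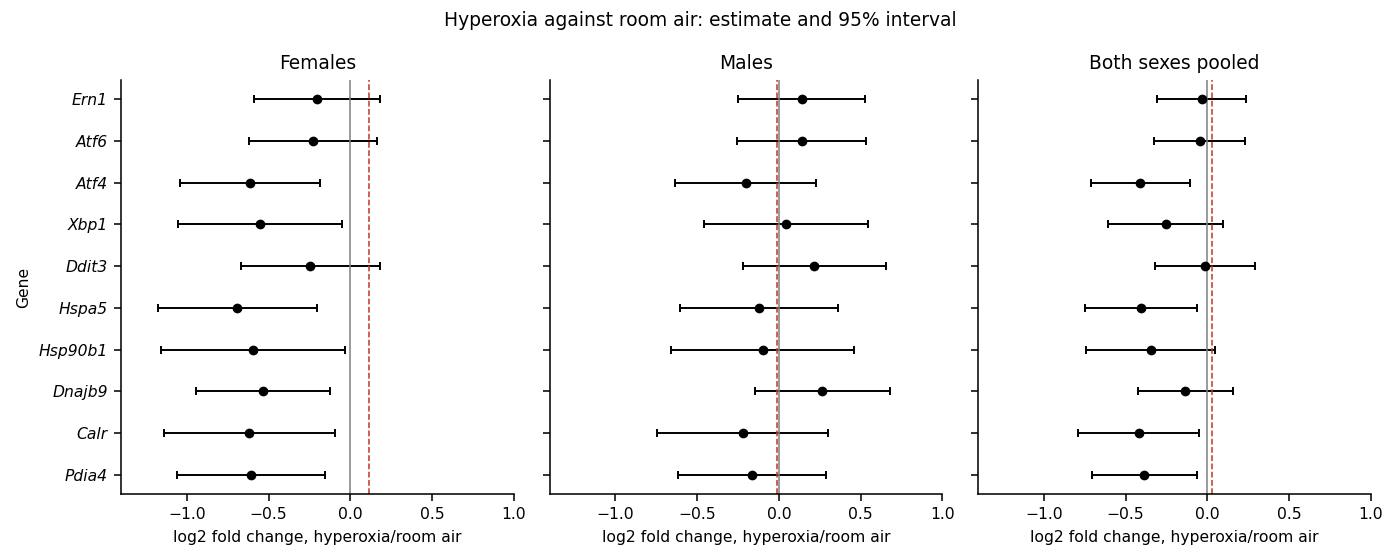
Estimated log2 fold change of hyperoxia over room air (horizontal axis) with its 95% interval for the 10 genes in females, males and both sexes pooled; the dashed line is the median of all genes tested. The intervals of 7 genes lie below 0 in females and 4 do so when pooled, while in males all 10 cross 0.

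Each of the 88 other genes of the pathway, in 5 lists, was tested. In females 82 had a lower and 6 a higher estimate, 27 had an unadjusted p under 0.05 in edgeR, all lower, and 0 were called. Such genes made up 5.28% of all genes and 10.6% of those of at least 5 CPM, a level that all but Fgf21 reached. In males 39 were lower and 49 higher, and 0 were called. There, 1 had an unadjusted p under 0.05 (lower), beside 2.7% of all genes in either direction. Pooled, 70 were lower and 18 higher, with 14 at an unadjusted p under 0.05, all lower, beside 2.52% of all genes, and 0 called. In females 26 of the 88 had no overlap between groups with hyperoxia lower, beside 6.42% of all genes, and 1 with hyperoxia higher, beside 10.8%. In males none had hyperoxia lower in this way and 2 had it higher, beside 2.73% of all genes.

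The 22 other ER chaperones, isomerases and their partners were all lower in females, 5 of them at an unadjusted p under 0.05, with a median log2 fold change of −0.32. Pdia3, a disulfide isomerase that works with calreticulin, had 143 ± 29.0 CPM in female room air and 95.2 ± 5.8 CPM in female hyperoxia (SD, n = 3), with a log2 fold change of −0.59. P4hb, the major protein disulfide isomerase, followed at −0.50. Sil1, the exchange factor of BiP, and Fkbp2, a prolyl isomerase, which had the highest pooled values of the list among genes of at least 5 CPM, had −0.03 and −0.13 in females. In males 15 of the 22 were lower and 7 higher, with none at an unadjusted p under 0.05.

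The 28 genes of translocation into the ER and of ER-associated degradation were likewise all lower in females, 12 at an unadjusted p under 0.05, with a median of −0.37. In males 9 were lower and 19 higher, and none reached that threshold. Ssr2 and Ssr4, subunits of the translocon-associated complex, had female log2 fold changes of −0.45 and −0.36. Sec11c, a signal peptidase subunit, had −0.04 and Derl3, a degradation factor of secretory cells, −0.06.

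The PERK and ATF4 branch was mixed. Of 22 genes 17 were lower and 5 higher in females, with 7 at an unadjusted p under 0.05, all lower, and in males 8 were lower and 14 higher, with 1 lower at that threshold. Atf3, a stress-induced repressor that is also an immediate early gene, had 17.3 ± 8.4 CPM in female room air and 8.56 ± 1.5 CPM in female hyperoxia (SD, n = 3), with a log2 fold change of −1.01 (edgeR adjusted p = 0.176). Cebpb, a partner of ATF4 and CHOP, had −0.62. Vldlr (−0.06) and Gdf15 (0.19), a secreted stress protein, had the highest pooled values among genes of at least 5 CPM.

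Of the 8 other sensors and proteolysis genes, 7 were lower and 1 higher in females, and Creb3l1, an ER membrane-bound factor of secretory cells, was the 1 at an unadjusted p under 0.05, with a log2 fold change of −0.34. Creb3 (−0.26), Mbtps2 (−0.0023), the protease that releases ATF6, and Ern2 (0.11), the epithelial relative of IRE1 alpha, gave smaller values. The 8 genes of ER stress and cell death were all lower in females, with 2 at an unadjusted p under 0.05. Mcl1, an anti-apoptotic member of the BCL2 family, had 190.0 ± 26.3 CPM in female room air and 111 ± 6.7 CPM in female hyperoxia (SD, n = 3), with a log2 fold change of −0.78 (edgeR adjusted p = 0.334). Bax had −0.42, Dapk1 −0.34 and Bcl2l11 −0.19. In males these 4 had 0.08, −0.01, 0.23 and 0.32.

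**Figure D3:**
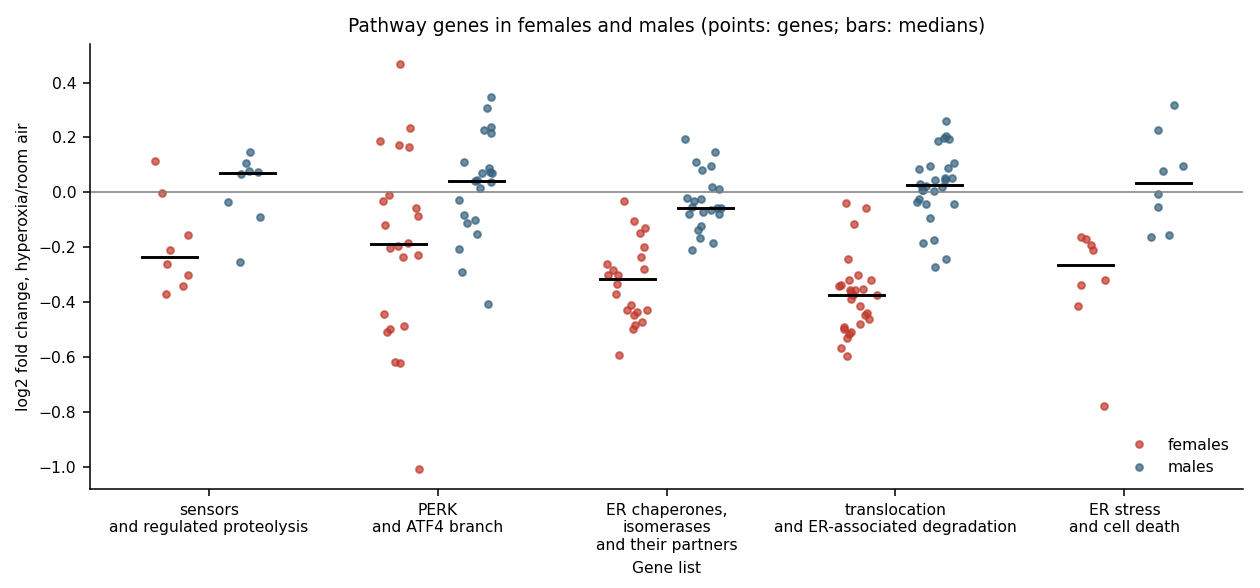
Log2 fold change of hyperoxia over room air (vertical axis) for the 88 other pathway genes in 5 lists (horizontal axis), with females in red, males in blue, one point per gene and bars at the medians. Female points lie mostly below 0 in each list, and male points lie on both sides.

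Across the 12 lungs, 8 of the other 9 genes ran close to Hspa5, Ddit3 being the exception. After the group means were removed, the 10 of 21397 genes closest to Hspa5 were Arpc2, Tpp1, Foxa2, Hes1, Hsp90b1, Trak1, Spty2d1, Cdipt, Fam168a and Supt20, with Pearson r from 0.99 to 0.982. Only Hsp90b1 among these belongs to the 10 genes. Calr was the 12th closest (r = 0.981), Pdia4 the 109th and Xbp1 the 288th, whereas Atf4 (0.916), Atf6 (0.915) and Dnajb9 (0.915) ranked 2112nd, 2172nd and 2174th and Ddit3 had r = 0.498. These values describe 12 lungs that share a first principal component holding 52.2% of the variance, and so many genes had a high r.

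The level of the 10 genes moved against the receptor share, the measure taken for background reads. The receptor share was 0.517%, 0.41% and 0.739% in female room air lungs 2, 5 and 6, and 0.669%, 0.781% and 0.847% in female hyperoxia lungs 2, 4 and 5. It was 0.9%, 0.642% and 0.769% in male room air lungs 1, 4 and 5 and 0.515%, 0.945% and 0.724% in male hyperoxia lungs 1, 2 and 3. The 3 lungs with the smallest share, female room air 2 and 5 and male hyperoxia 1, were among those with the most Hspa5. Over the 12 lungs Hspa5 on the log2 scale had Pearson r = −0.926 (permutation p = 4e-05, two-sided) and Spearman rho = −0.909 (permutation p = 0.00014) with the log2 receptor share. The 10 genes were each tested in this way, with r from −0.978 for Xbp1 to −0.686 for Ddit3 and permutation p adjusted over the 10 of at most 0.0142. Within females r was −0.952 and within males −0.872 for Hspa5. Without female room air 5 and male hyperoxia 1, the lungs farthest from the median share, r was −0.88 for Hspa5 and −0.459 for Ddit3. An r under −0.8 was found in 26.7% of the 21397 genes, and the level and the share are both parts of the same library total.

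**Figure D4:**
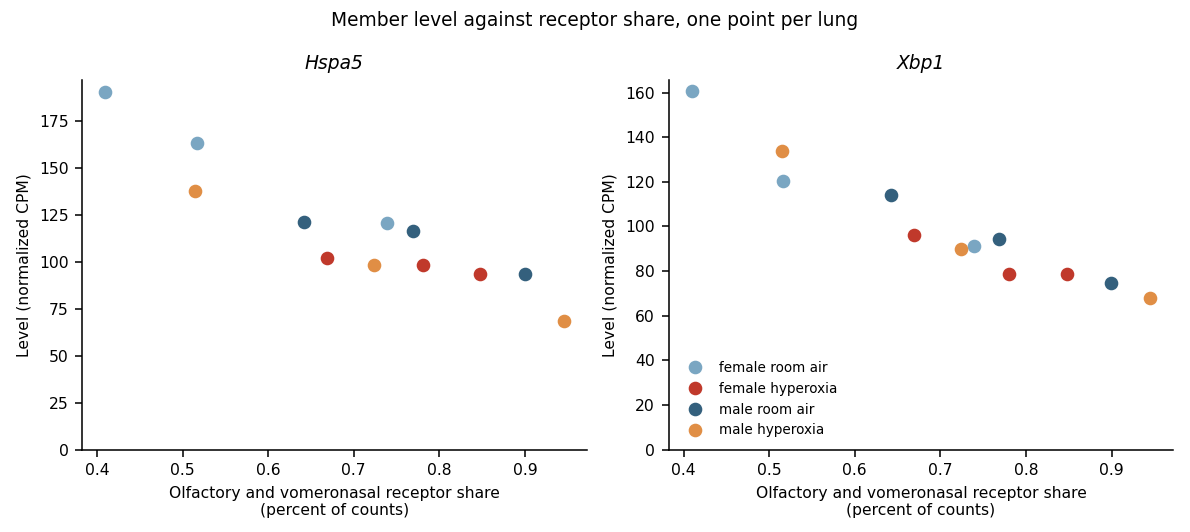
Normalized CPM of Hspa5 and Xbp1 (vertical axes, from 0) against the percent of counts on olfactory and vomeronasal receptor genes (horizontal axis), one point per lung, coloured by group. Lungs with a smaller share have more of either gene, with r = −0.926 for Hspa5 and −0.978 for Xbp1 on log2 scales.

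With the log2 receptor share as a covariate, the female estimates moved towards 0, to a median of −0.02, with 6 of the 10 lower and 4 higher. At an unadjusted p under 0.05 there was 1, beside 2529 of the 45828 genes tested in either direction. The Hspa5 estimate in females became −0.22 and that of Xbp1 0.01. In males the median became −0.19, and the Hspa5 estimate was −0.27. In males 5 of the 10 were lower at an unadjusted p under 0.05, beside 2876 genes in either direction. The difference between the sexes had a median of 0.07 under this covariate, where it was −0.45 without it. The pooled estimates had a median of −0.10, with 5 at an unadjusted p under 0.05, beside 3375 genes in either direction. Those of Calr (−0.26, edgeR adjusted p = 0.0585), Atf4 (−0.26, 0.0872) and Hspa5 (−0.24, 0.0912) came nearest to the threshold. No gene of the 10 was called. With background reads subtracted instead, the female median was −0.40, and all 10 estimates were lower. At an unadjusted p under 0.05 there were 5, beside 3143 of 45002 genes in either direction, and none was called.

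With RUVr, a method the study names that removes factors estimated from the residuals of the same lungs, the estimates hardly changed while the tests did. The residuals were taken after the 4 groups were fitted, so by construction the factors could move the group estimates little. With 1 factor, 8 of the 10 had an adjusted p under 0.05 in females, and Hspa5 (−0.66), Atf4 (−0.61) and Calr (−0.59) were called, the smallest edgeR adjusted p being 2.8e-09. Over the whole table, 1900 genes were called in females under RUVr (4.15%) and 1 without it. In the difference between the sexes, 9 of the 10 had an adjusted p under 0.05, all but Ddit3, and Dnajb9 was called, at −0.74, beside 2102 genes of the table (4.59%). In males none of the 10 had an adjusted p under 0.05, and pooled 6 had, all lower, with none called. Averaged over exposures, 4 had an adjusted p under 0.05, Hspa5, Hsp90b1, Atf4 and Calr, each higher in females, with none called. At an unadjusted p under 0.05 there were 9 of the 10 in females, beside 13486 of the 45828 genes tested in either direction. There were 9 in the difference between the sexes, beside 11700 genes, and 7 pooled, beside 7542 genes. In males 5 were lower and 1 higher at this threshold, beside 3827 genes. Averaged over exposures 6 were higher in females, beside 7265 genes. The share of all genes at an adjusted p under 0.05 alone was not counted. The number of factors the authors used is not stated, and with 2 factors the same genes were called. RUVr and the receptor share covariate gave different values for the same lungs. As RUVr could hardly move the estimates, its values do not weigh against those of the covariate. The part of background reads in the female difference was not tested.

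**Figure D5:**
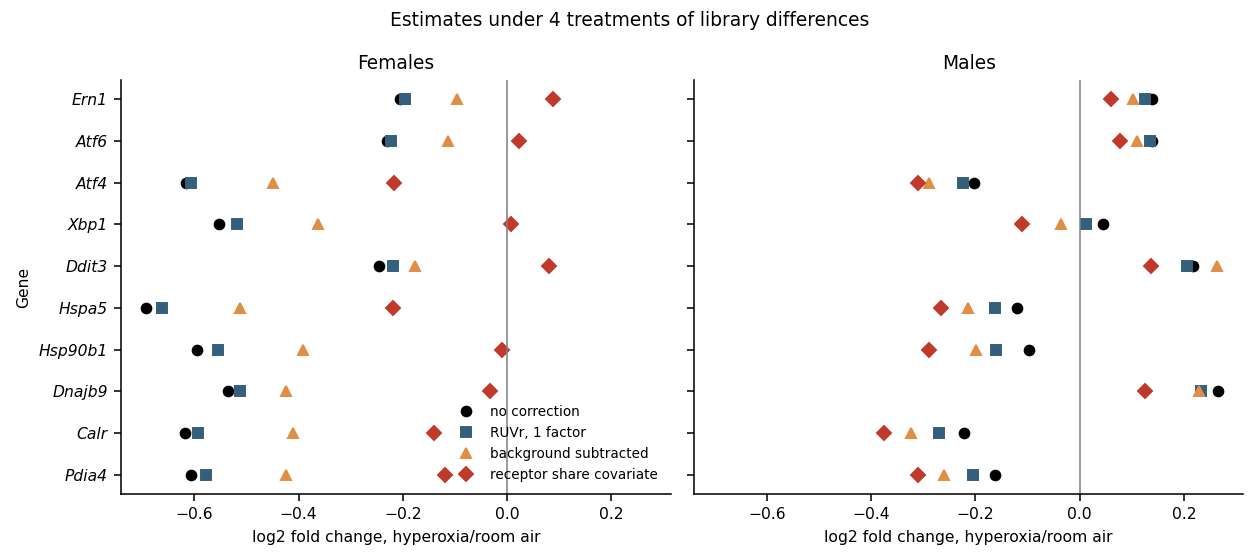
Log2 fold change of hyperoxia over room air (horizontal axis) of the 10 genes in females and males with no correction, with RUVr (1 factor), with background reads subtracted and with the receptor share added as covariate. In females the covariate brings the values from a median of −0.57 to −0.02, and background subtraction brings them to −0.40. RUVr, whose factors come from residuals of the group fit, leaves them near the uncorrected values.

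Marker genes of other cell types moved in the same female comparison. In whole lung, fewer cells of a type and less RNA per cell cannot be told apart. The summed level of 8 alveolar type 2 genes ran from 7100 to 13700 CPM in female room air and from 6700 to 8570 CPM in female hyperoxia, and the 8 were each lower, 1 of them at an unadjusted p under 0.05. The sum of 7 club and secretory airway genes ran from 6490 to 12900 CPM and from 4660 to 6620 CPM, respectively, with 7 of 7 lower and 0 at that threshold. For 6 fibroblast genes it ran from 2480 to 4120 and from 2510 to 2670 CPM, for 7 capillary endothelial genes from 1530 to 2360 and from 1370 to 1800 CPM, and for 9 plasma cell genes from 281 to 449 and from 246 to 297 CPM. These ranges overlapped, except that they nearly parted for the airway genes. For 7 alveolar macrophage genes the ranges were 224 to 443 and 235 to 390 CPM. The 6 fibroblast and 7 capillary endothelial genes were each lower in females, with median log2 fold changes of −0.52 and −0.43. Of the plasma cell genes 6 of 9 were lower (median −0.08), and of the macrophage genes 4 of 7 (median −0.02).

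Other lists parted fully between the female groups. The 5 red cell genes summed to between 5450 and 7880 CPM in female room air and between 1250 and 2930 CPM in female hyperoxia, and also parted in males (5120 to 7330 and 2110 to 4650 CPM). The 6 heart muscle genes lay at 216 to 242 and 108 to 142 CPM in females, the 7 cytosolic heat shock genes at 394 to 506 and 228 to 294 CPM, and the 8 immediate early genes at 441 to 578 and 248 to 430 CPM. In male room air and male hyperoxia, the heart muscle genes lay at 109 to 241 and 112 to 115 CPM. The heat shock genes lay there at 222 to 280 and 172 to 288 CPM, and the immediate early genes at 195 to 308 and 204 to 353 CPM. For the heat shock and immediate early genes, female room air thus stood above each other group. The 7 heat shock genes were each lower in females at an unadjusted p under 0.05. The 7 skeletal muscle genes lay at 55.9 to 73.1 and 68.6 to 75.1 CPM in females but reached 1150 CPM in a male room air lung. No marker list had a gene at 0 in every lung. The part of these cell types and of handling-sensitive genes in the levels of the unfolded protein response genes was not tested.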

How the data were processed

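Whole-lung RNA-Seq of 12 miR-30a-/- mice was used, 3 per group of sex and exposure taken from the labels. Before deposit, adapters were trimmed (Trim Galore), reads aligned to the mouse mm10 build (STAR) and counted per gene (featureCounts). The values the authors deposited are these raw counts. The labels name an rRNA-depleted directional kit and the methods another stranded kit. The strand setting of the counting is not given in the sources used here. The study's ComBat-seq step joined these lungs with WT data, which were not used here. The 55487 genes had 0 value columns without a sample. Positions and exon lengths came from GENCODE M21, for 55141 genes.

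Counts were fitted with edgeR 4.0.16 (R 4.3.3, limma 3.58.1) as 4 groups, with upper-quartile normalization, filterByExpr (45828 genes) and the robust quasi-likelihood test, with Benjamini-Hochberg adjustment over all tested genes. A call needed a fold change above 1.5 besides an adjusted p below 0.05. The biological coefficient of variation was 0.177. DESeq2 1.42.0 was an alternative, as were TMM, other filters, RUVr, background corrections and leaving out lungs. Scripts were tested on simulated data. For background subtraction, the reads per kilobase on receptor genes, times exon length, were taken off each gene. Correlations used log2 CPM with a prior count of 2 and, for the receptor share, 100000 permutations. Tables and figures used Python 3.11.15, pandas 2.3.3 and matplotlib 3.10.9.

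The 10 genes and the pathway and marker lists were chosen with earlier results of these data known. All 10 are named; of each pathway list, the 2 highest and 2 lowest pooled log2 fold changes among genes of at least 5 CPM; and the 10 genes with residuals most like Hspa5. Within each group, libraries differed by more than sampling noise (chi-square per degree of freedom at least 2.47), so none was a copy of another in its group. Libraries of different groups were not compared in this way. Whether the 3 lungs of a group came from separate litters is not stated. The depth gave a floor of 3 counts, 0.179 to 0.342 CPM, covering counting error only.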

Additional observations from a re-analysis of the deposited data

How the results depend on the processing

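Calls of the 10 genes depended on RUVr alone: 3 were called in females with 1 factor and 3 with 2 factors, and 1 with either in the difference between the sexes. No other setting called any of them, including TMM, DESeq2, both filters, both background corrections, fits of 1 sex or an additive model, the adjusted p alone and leaving out each lung (0 to 0). The settings for the average difference between females and males, and leaving out lungs for the difference of effects, were chosen after seeing the data. The animal number as a replicate block in the 6 female lungs (numbers 2 and 5 shared, residual r 0.19 and −0.33, so shared numbers only) called 0, with a smallest edgeR adjusted p of 0.0808, and 8 at an unadjusted p under 0.05. The cause of the following changes of sign was not tested. With the receptor share as covariate, estimates turned in females for Ddit3 (0.080), Atf6 (0.022), Xbp1 (0.0080) and Ern1 (0.088), in males for Xbp1 (−0.11) and pooled for Ddit3 (0.11), Atf6 (0.050), Ern1 (0.074) and Dnajb9 (0.046). With background subtracted they turned for Xbp1 in males (−0.036) and pooled for Ddit3 (0.044) and Ern1 (0.0027). With at least 10 counts in every library pooled Ddit3 turned (0.021). Leaving out 1 lung gave, in males, −0.26 to 0.24 for Xbp1, −0.49 to 0.13 for Hsp90b1, −0.0097 to 0.27 for Ern1, −0.40 to 0.094 for Hspa5, −0.42 to 0.025 for Atf4 and −0.45 to 0.055 for Pdia4, and pooled −0.13 to 0.10 for Ddit3, −0.10 to 0.016 for Atf6 and −0.11 to 0.033 for Ern1. None of these estimates was called. Estimated background reads made up 21.7% of the counts of Ddit3, and 3 lungs a group limit every interval.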
